A study of Ramazzottius varieornatus with 27 samples.

Results

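A set of 115 genes of the tardigrade *Ramazzottius varieornatus* lay near the non-irradiated level 4 h after gamma irradiation and above it from 12 h to 24 h. These genes were chosen by the measured values themselves, so their levels against the control, at 4 h and at 24 h are a description with no test. A gene entered when it had 1 transcript row, a control mean of at least 2, a change within 0.5 at 4 h, a mean change of at least 1.2 over 12, 15, 18 and 21 h, a change of at least 0.5 at 24 h, and all 12 libraries of 12 h to 21 h above the highest control library. A change here is the difference of log2(group mean + 1) from the control. Of 13920 genes in the table, 13369 had 1 transcript row and 9917 of these had a control mean of at least 2, and the 115 members came from those 9917. None of the transcript IDs (g numbers) matched a gene name in the sources used here, so the members are given by ID and their functions are not described.

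Whole animals fed on *Chlorella vulgaris* and kept at 22 degrees C were used. Irradiated groups received 500 Gy of 60Co gamma ray and were sampled after 4, 6, 9, 12, 15, 18, 21 and 24 h, and a control group carries no time after irradiation. Age and strain of the animals are not given in the sources used here. The records of the control samples carry the same irradiation text as those of the irradiated samples. The control group was therefore taken from the sample titles and time labels, and the study calls it non-irradiated. Its handling is not otherwise described. Each of the 9 groups had 3 samples of 30 animals, which gives 27 libraries. The irradiated animals were sampled from plates on which the contents of 2 tubes had been spread. The study calls these samples technical replicates, so p-values measure only the spread between these samples.

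*R. varieornatus* is a limno-terrestrial tardigrade known for survival of desiccation and of high doses of ionizing radiation. Gamma rays break DNA and form reactive oxygen species through the radiolysis of water, and animals answer with damage signalling, DNA repair and antioxidant enzymes. Transcripts that rise within the first hours after such damage are commonly told apart from those that rise later, and the genes described here are of the later kind by the way they were chosen. In RNA of whole animals, a change in the number of cells that express a gene and a change in the RNA per cell cannot be told apart.

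Values are TMM-normalized TPM, the share of a transcript after division by its length, scaled between libraries. Low values moved in steps, and 1 read of a transcript of median length was worth 0.0553 in the deepest library (4 h replicate 2) and 0.851 in the shallowest (24 h replicate 3). For the 50 members whose length could be recovered from these steps, the median number of reads behind a value was lowest in 24 h replicate 3 (185) and highest in 18 h replicate 1 (2072). The methods state 15 PCR cycles for 4 h and for replicates 1 and 2 of 6 h, 21 for every library from 6 h replicate 3 up to 21 h, and 23 for 24 h. They do not name the controls in this list. The part of the cycles in any difference between groups was not tested. Time and cycles cannot be told apart for 4 h against 9 h to 21 h, nor for the 24 h group. The methods also report adapter dimers in 9 h replicate 1.

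The members were genes of middle and low level. Their control means ran from 4.27 to 229 with a median of 26.9, against a median of 39.7 over the 9917 genes that could enter. Only 9 members had a control mean under 10, 86 lay from 10 to 50 and 20 lay at 50 or more. Averaged over 12 h to 21 h the same genes stood between 12.2 and 574 with a median of 71.7. The ratio of that mean to the control mean ran from 2.33 to 4.08 with a median of 2.54, so the set is made of moderate changes. Its summed value took 0.401% ± 0.067 of all values in the controls (SD, n = 3) and 0.490% ± 0.035 at 4 h. It then took 0.752% ± 0.238 at 6 h and 1.19% ± 0.228 at 9 h. It took between 1.06% ± 0.030 (15 h) and 1.30% ± 0.042 (18 h) at the 4 times from 12 h to 21 h, and 1.21% ± 0.078 at 24 h. A share of the library sum takes out the TMM factor, so it is on another scale than the ratio above. With that factor kept, the summed value was 4419 ± 808 in the controls. It was between 10413 ± 522 (15 h) and 12169 ± 173 (18 h) at the same 4 times.

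The limits of the rule ran through a dense region. The smallest mean late change among members was 1.202 and the largest just outside was 1.196, and 69 further genes met every other condition with a late change between 1.1 and 1.2. Of the members, 56 had a late change between 1.2 and 1.3. The highest 4 h change inside the limit was 0.49 and the lowest above it was 0.53. The condition at 24 h removed no gene by itself, as the lowest member stood 0.87 above the control there, and the condition on single libraries removed 2. Among the 9917 genes, 152 had a late change of at least 1.2, and 118 of these were also within 0.5 at 4 h, while 33 were above that limit and 1 below it. Membership was sensitive to the control libraries, most of all to replicate 2: without control replicate 2 the rule gave 44 members, 39 of them shared with the 115. Without control replicate 1 the rule gave 139 members with 96 shared, and without control replicate 3 it gave 152 with 88 shared. With the TMM factor taken out, so that all libraries had equal sums, it gave 292, with 112 shared.

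Near the control at 4 h means a limit of 0.5 here, not equal levels. At 4 h the mean of 110 of the 115 members lay above the control mean, as did 55.1% of all 12820 tested transcripts, and their median change was 0.27 against 0.03 over the genes that could enter. The 4 h libraries did not overlap the controls, on the higher side, for 28 members, against 10% of all tested transcripts. The comparison used limma on log2(value + 1), and a transcript was called where the ratio of group means was over 2 and the p adjusted by Benjamini-Hochberg over 12820 transcripts was under 0.05. All 115 members passed the filter on low values. No member was called higher at 4 h, against 0.25% of all tested transcripts, and none lower, against 0.265%. At an unadjusted p under 0.05, 20 members were higher (4.72% of all tested transcripts) and 0 lower (3.79%). As the rule used 4 h and the control, nothing is read from these counts.

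The median of the set was higher at 6 h than at 4 h and higher at 9 h than at 6 h. Set against each gene's own late change, the median member had reached 20.4% of it at 4 h, 59.2% by 6 h and 98.4% by 9 h. The 24 h value of the median member was 103.6% of its late change. At 9 h, 51 of 115 members had passed their mean of 12 h to 21 h. The median change was 0.79 for the 6 h group and 1.29 for the 9 h group. The 12 h and 15 h groups had medians of 1.28 and 1.17, the 18 h and 21 h groups of 1.42 and 1.37, and the 24 h group of 1.34. The plot of the members by library shows these levels beside the median of all tested transcripts, which stayed within a much narrower band.

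**Figure D1:**
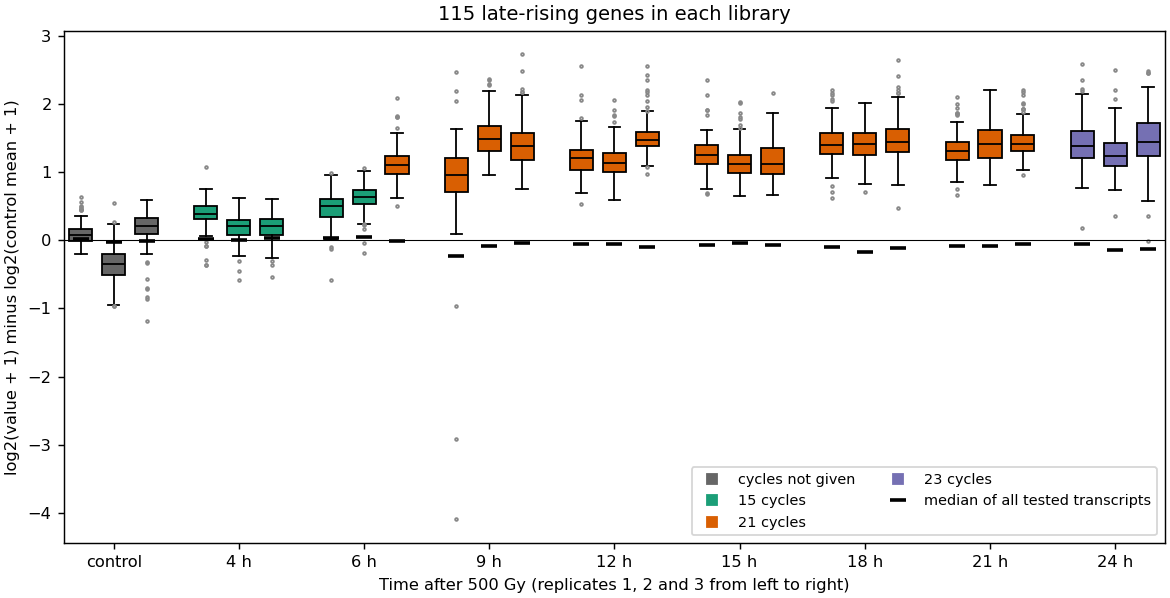
Change of the 115 members from their control mean in each of the 27 libraries, on the log2(value + 1) scale, with boxes for the quartiles, whiskers to 1.5 box lengths and a bar for the median of all tested transcripts. Colours give the PCR cycles; 6 h replicate 3, with a median of 1.10, stands with the later libraries and apart from 6 h replicates 1 and 2, with medians of 0.51 and 0.63.

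Within the 6 h group the members did not move as 1 group. The median change from the control mean was 0.51 in replicate 1 and 0.63 in replicate 2, both with 15 cycles, and 1.10 in replicate 3, with 21 cycles. Replicate 3 was above both others for 115 of 115 members, as it was for 37.2% of all tested transcripts, and the median gap to the mean of the other replicates was 0.53 against -0.02 over all tested. The smallest gap of a member was 0.24 and the largest 1.73. Replicates 1 and 2 by themselves had reached a median of 43.2% of the late change, while replicate 3 had reached 83.2%, and in replicate 3 alone 17 members stood above their own late mean. Replicates 1 and 2 were above all 4 h libraries, with which they share the number of cycles, for 81 members, against 17.2% of all tested transcripts. The median difference to 4 h was 0.30 in these libraries, against 0.04 over all tested. The rule limited the 4 h level of the members and not that of the other transcripts, so nothing is read from these comparisons with 4 h. The spread between the 6 h libraries was a median SD of 0.32 for the members and 0.22 for all tested transcripts, and whether time, cycles or the animals of 1 sample set replicate 3 apart was not tested.

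**Figure D2:**
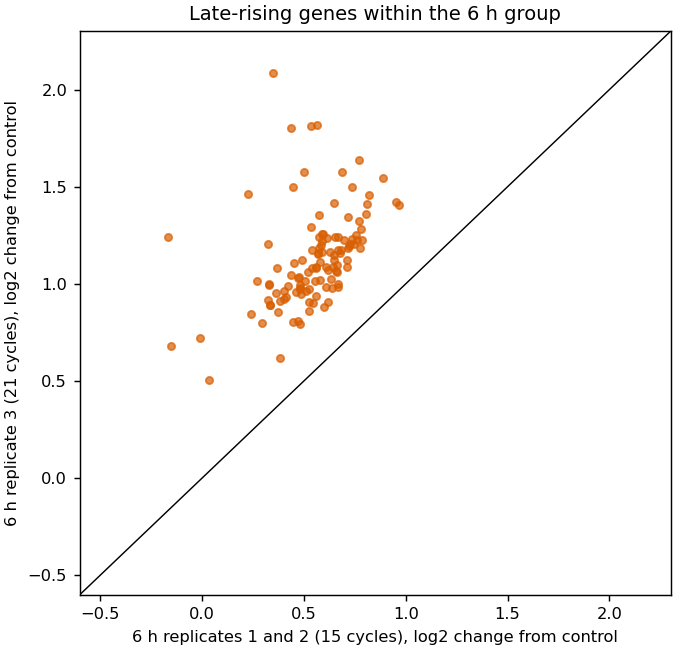
Log2 change from the control mean of each member in 6 h replicate 3 (vertical axis) against the mean of 6 h replicates 1 and 2 (horizontal axis), 1 point per member, with the line of equal change. All 115 points lie above the line, by 0.24 to 1.73.

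The choice of members used no value of 6 h or 9 h. It did fix a level near the control at 4 h and a higher one at 12 h to 21 h. A rise at the times between is therefore partly built in, while the tested transcripts set beside the members were not chosen in this way. With limma fitted on all 27 libraries, 6 of 115 members were called higher at 9 h than at 6 h and 0 lower. Over all tested transcripts 0.741% were called higher and 0.975% lower. At an unadjusted p under 0.05, 79 members were higher (8.89% of all tested transcripts) and 0 lower (12.8%). The fitted difference was above 0 for 113 members, against 41.1% of all tested transcripts, with a median of 0.51 on the log2 scale (median SE 0.22), while the median over all tested transcripts was -0.11. The 6 called members differed by 1.06 to 1.52 on the log2 scale (adjusted p from 0.008266 to 0.04396), and their control means ran from 9.09 to 184, so they did not stand at 1 end of the range of levels. In these 6 the 9 h libraries lay above all 6 h libraries, replicate 3 included. The SE rests on a spread shared by all 9 groups. The median SD between replicates over all tested transcripts was 0.41 at 9 h and 0.22 at 6 h, and for the members 0.33 and 0.32. With only both groups in the fit, 0 members were called higher. The share of all tested transcripts in that fit is not given here.

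The libraries of 9 h lay wholly above those of 6 h for 28 members, against 9.43% of all tested transcripts, and wholly below for 0, against 14.2%. Set against 6 h replicates 1 and 2 alone, the 9 h libraries lay above for 93 members (16.6% of all tested), and against 6 h replicate 3 alone for 28 (15.8% of all tested). The median fitted difference was 0.70 from replicates 1 and 2 and 0.16 from replicate 3, and 87 members were above 0 in the latter comparison, against 41.7% of all tested transcripts. With 6 h replicate 3 alone as the 6 h group, which has the same 21 cycles as 9 h, 0 members were called in either direction, and limma called 0 of all 12776 transcripts tested in that fit. At an unadjusted p under 0.05 it gave 3 members higher (2.22% of all tested) and 1 lower (3.15%). A 6 h group of 1 library has a larger error, so 0 calls there do not show that 6 h replicate 3 and 9 h were equal. With replicates 1 and 2 alone 11 members were called higher, against 0.844% of all tested transcripts.

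**Figure D3:**
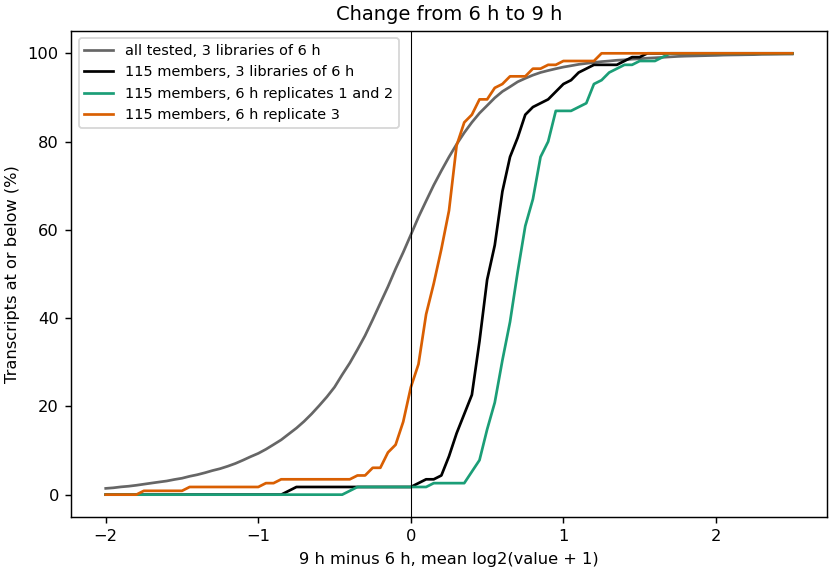
Cumulative share of transcripts (vertical axis, %) by the difference of mean log2(value + 1) between 9 h and 6 h (horizontal axis), for all tested transcripts and for the 115 members with all 6 h libraries, with replicates 1 and 2 and with replicate 3 alone. The members' medians are 0.51, 0.70 and 0.16 in that order, and the median of all tested transcripts is -0.11.

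One library of the 9 h group also stood low. The median member change was 0.96 in replicate 1, 1.49 in replicate 2 and 1.38 in replicate 3, and replicate 1 was below both others for 98 members, against 46.4% of all tested transcripts. In it 2 members are listed at 0, although neither was under 4.07 in any other library. Without 9 h replicate 1, 12 members were called higher at 9 h than at 6 h (1.04% of all tested transcripts), and without both this library and 6 h replicate 3, a setting chosen after seeing the data, 33 were called (1.43% of all tested transcripts), with a median difference of 0.86. In the controls, replicate 2 was the low library, below both others for 102 members against 35.6% of all tested transcripts, with a median change of -0.35 from the control mean. The rule used the control mean and the highest control library, so this count can come from the choice of members and nothing is read from it.

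No difference among 12, 15, 18 and 21 h passed the test. None of the 115 was called in any of the 6 pairs of these times, all of which had 21 cycles, and limma called 0 of 12820 transcripts in them. The smallest adjusted p of a member was between 0.5518 and 0.9314 across the pairs. At an unadjusted p under 0.05, in either direction, from 1 to 5 of the 115 members passed in a pair, while from 608 to 1043 of 12820 transcripts did, so these counts are no result about the members. The median fitted difference of the members was 0.25 for 18 h against 15 h and 0.20 for 21 h against 15 h, and between -0.10 and 0.14 for the other pairs, with a median SE of 0.22 for a single gene. The highest of these 4 means lay at 18 h for 64 members, at 21 h for 36, at 12 h for 12 and at 15 h for 3, an order that no test of a single gene bears out. These p-values do not show that the levels were equal: over the pairs, single differences of members ran from -0.66 to 0.82.

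The spread between libraries differed between times. The median SD between replicates was 0.22 in the 12 h group, 0.13 in that of 15 h, 0.20 in that of 18 h and 0.15 in that of 21 h. Over the 9917 genes that could enter it was 0.21, 0.21, 0.34 and 0.24 in the same order, so the members were not less spread at 12 h. The controls had 0.34 against 0.23 over these genes, the 4 h group 0.16 against 0.18, the 9 h group 0.33 against 0.36 and the 24 h group 0.22 against 0.32. The rule used single libraries of the controls and of 12 h to 21 h, so nothing is read from the spread there.

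The level at 24 h is a description, since the rule required at least 0.5 there. The 24 h mean was above the mean of 12 h to 21 h for 74 members and below it for 41, with a difference from -0.43 to 0.58 and a median of 0.05. From 21 h to 24 h the median difference was -0.02, against -0.04 over all tested transcripts. All 24 h libraries lay above the highest control for 112 members, against 18.1% of all tested transcripts, which the rule partly fixed. The group with the highest mean was 18 h for 48 members, 21 h and 24 h for 22 each, 9 h for 13, 12 h for 8 and 15 h for 2. No member had it in the controls or at 4 h, which the rule had fixed, and no member had it at 6 h.

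**Figure D4:**
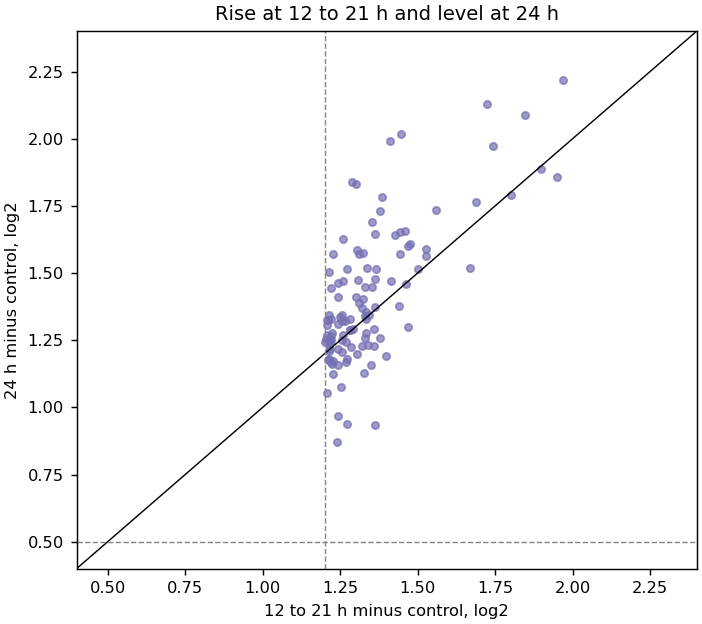
Change from the control at 24 h (vertical axis) against the mean change at 12, 15, 18 and 21 h (horizontal axis), both as differences of log2(group mean + 1), 1 point per member, with the line of equal change and dashed lines at the limits of 1.2 and 0.5. Of the 115 members, 74 lie above the line, and the lowest member at 24 h stands at 0.87.

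Counts of calls against the control are given with no reading, since the rule used the control. Members called higher numbered 9 in the 6 h group (0.655% of all tested transcripts), 108 in that of 9 h (5.3%), 110 in that of 12 h (3.84%) and 101 in that of 15 h (2.63%). They numbered 113 in the 18 h group (5.3%), 113 in that of 21 h (4.06%) and 110 in that of 24 h (4.64%). No member was called lower at any of these times, where the share of all tested transcripts called lower was 2.22% (6 h), 7.35% (9 h), 6.46% (12 h), 4.34% (15 h), 8.95% (18 h), 5.76% (21 h) and 7.3% (24 h). The 6 h libraries lay above all controls for 97 members (19.4% of all tested transcripts) and those of 9 h for 107 (17.7%). All 24 irradiated libraries, those of 4 h included, lay above the highest control for 28 members. The rule had fixed this for the 12 libraries of 12 h to 21 h, and the share over all tested transcripts was not computed, so nothing is read from it. The count at 6 h was 0 without 6 h replicate 3, 3 without control replicate 2 and 33 without control replicate 3. The shares of all tested transcripts in these fits are not given here, so this change in count is not read as a trait of the members.

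By control level the medians were as follows. The median late change was 1.45 for the 9 members with a control mean under 10, 1.28 for the 86 from 10 to 50 and 1.33 for the 20 at 50 or more. The median change at 4 h was 0.29, 0.27 and 0.29 in that order, and that from 6 h to 9 h was 0.62, 0.50 and 0.56. The pseudocount of 1 lowers the change of the first of these sets more than that of the others.

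Of the members named by ID, g4839.t1 had the largest late change. The controls held 29.5, 26.0 and 8.85, the 4 h libraries 31.7, 25.2 and 28.0, those of 6 h 32.8, 40.4 and 62.5, and those of 9 h 35.4, 64.7 and 60.3. Values of 131, 92.4 and 81.1 followed in the 12 h group, 97.0, 69.5 and 98.8 in that of 15 h, 84.8, 89.4 and 83.2 in that of 18 h, 79.8, 60.9 and 81.5 in that of 21 h, and 79.0, 125.5 and 105.6 in that of 24 h. Control replicate 3 was the low library here, the libraries of 6 h and 9 h overlapped, and the lowest library from 12 h on, at 60.9, was above the highest control. The ratio of the late mean to the control mean was 4.08. The step from 6 h to 9 h was 0.24 on the log2 scale (SE 0.33, limma adjusted p = 0.708) and did not pass the test.

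The member with the largest step from 6 h to 9 h, g11487.t1, rose at that step. Its values were 10.2, 12.4 and 16.0 at 6 h and 34.8, 36.0 and 44.0 at 9 h, a difference of 1.52 on the log2 scale (SE 0.33, limma adjusted p = 0.01482), and the groups did not overlap. The controls held 15.8, 8.40 and 8.62 and the 4 h libraries 15.0, 10.2 and 10.2, so its 6 h libraries, replicate 3 included, lay near the control range. The later values were more scattered, with 16.3, 25.0 and 48.2 in the 12 h group, 18.1, 19.8 and 32.4 in that of 15 h, 30.1, 20.3 and 28.5 in that of 18 h, 36.4, 35.2 and 23.5 in that of 21 h, and 32.0, 32.7 and 43.0 in that of 24 h. Its 9 h mean of 38.2 was the highest of its group means. The difference was 1.37 without 6 h replicate 1 (limma adjusted p = 0.08224) and 1.504 without replicate 2 (limma adjusted p = 0.08118), so its size held while the call was lost. The call was also lost with only both groups in the fit (1.52, limma adjusted p = 0.1332) and with 6 h replicate 3 alone (1.201, limma adjusted p = 0.7319).

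On the mean of log2(value + 1) over libraries, the scale of the fit, the member at the other end of that step was g7118.t1, at 10.5, 19.1 and 39.4 at 6 h and at 0, 55.3 and 27.8 at 9 h. The fitted difference was -0.84 (SE 0.90, limma adjusted p = 0.6194), and without 9 h replicate 1, in which it is listed at 0, it was 0.94 with an adjusted p of 0.3361. As a difference of log2(group mean + 1) the step was 0.26, so the direction turns with the scale. Its controls were 22.3, 9.40 and 16.5, and the 4 h libraries, at 15.1, 10.4 and 12.3, lay within their range. The 12 h libraries held 34.8, 48.4 and 35.0, those of 15 h 26.6, 33.3 and 43.1, those of 18 h 40.5, 43.3 and 106, and those of 21 h 61.5, 37.4 and 48.7. The 24 h libraries held 56.1, 57.9 and 16.0, with 1 library inside the control range.

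On the same mean of logs, g7576.t1 had the lowest 24 h level against its own 12 h to 21 h mean, with a difference of -0.50. On the scale of group means it was -0.37, and another member was lower, at -0.43. Its 24 h values were 10.4, 30.0 and 11.9, where replicates 1 and 3 stood at the control values of 10.6, 5.46 and 11.3 and replicate 2 with the late ones. The 4 h libraries held 8.57, 11.2 and 9.81, those of 6 h 9.19, 8.86 and 15.6, and those of 9 h 21.3, 19.6 and 23.4. The step from 6 h to 9 h was 0.92 (SE 0.34, limma adjusted p = 0.1224), with no overlap between the groups but no call. From 12 h to 21 h its values ran from 13.0 to 32.9, both limits being single libraries, of 18 h and 21 h.

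**Figure D5:**
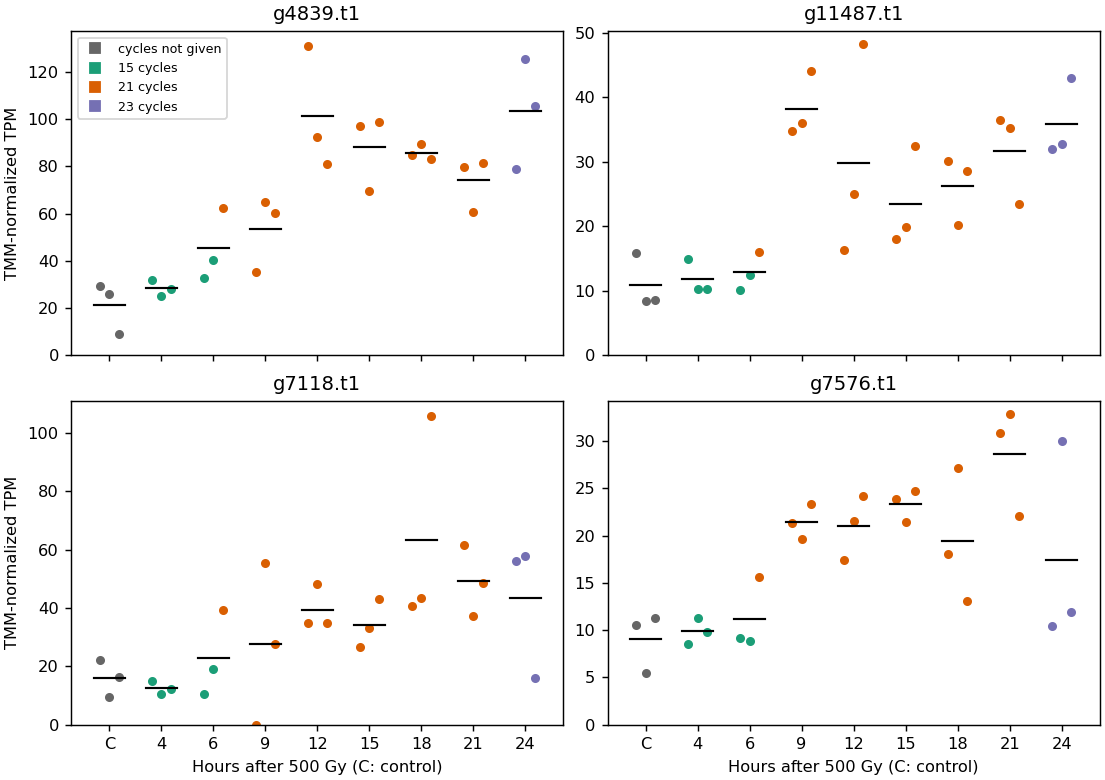
TMM-normalized TPM (vertical axes, linear from 0) of the members g4839.t1, g11487.t1, g7118.t1 and g7576.t1 by hours after 500 Gy (C, control), with 1 point per library coloured by PCR cycles and a bar for the mean of the 3 libraries. In g11487.t1 the 9 h libraries (34.8 to 44.0) stand above the 6 h libraries (10.2 to 16.0), while in g7118.t1 one 9 h library is at 0.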

How the data were processed

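RNA of whole *R. varieornatus* was sequenced in 27 libraries of 9 groups. The authors used Bowtie2 for mapping on the coding sequences, RSEM for TPM, and a TMM factor for each library. The signal deposited for 14532 transcripts is the product of TPM and this factor, and library sums ran from 891312 to 1140371. No column was left unused. On the log2(value + 1) scale, limma 3.58.1 in R 4.3.3 was fitted (9 group means, trend, Benjamini-Hochberg adjustment over all tested) to the 12820 transcripts that reached 1 in 3 or more libraries. On simulated data for 9 h against 6 h with 12820 transcripts, 79% of 2.5-fold and 83% of 4-fold changes were recovered, with 8 false calls of 170. Only transcripts above a limit of level were changed there, and the noise was independent between libraries. Changes under 2.5-fold, such as the members' median step from 6 h to 9 h, were not simulated. Library steps and relative lengths were recovered from low values. Replicate numbers did not pair samples. Named members were those with the largest late change, largest and smallest step from 6 h to 9 h, and largest fall to 24 h. Members and lists were chosen with earlier results of these data known. Gene lists (DNA repair and others) could not be matched to the IDs. The alternatives were another pseudocount, no filter, no TMM factor, 2-group fits, a replicate block, other fold rules, parts of the 6 h group, and each library left out. Figures used Python 3.11.15 and matplotlib 3.10.9.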

Additional observations from a re-analysis of the deposited data

How the results depend on the processing

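The count of 6 members called higher at 9 h than at 6 h was 21 with no fold threshold, against 1.65% of all tested transcripts. It was 0 with only both groups in the fit and 11 with 6 h replicates 1 and 2. It was 33 without 9 h replicate 1 and 6 h replicate 3 (chosen after seeing the data). Leaving out each library gave from 0 (without 6 h replicate 2) to 12 (without 9 h replicate 1), with 2 without 6 h replicate 1 and 3 without 9 h replicate 2. The shares over all tested transcripts are not given beside these counts. The changes in count are therefore not read as a result about the members. No member was called lower, or between 12 h and 21 h, in any setting run. With the replicate number as a block 6 members were called. The numbers do not pair the samples, with correlations of deviations from -0.16 to 0.127 and 2 of 108 pairs over 0.1. The 9 members higher at 6 h than in the controls became 76 with no fold threshold, against 5.44% of all tested transcripts. They became 34 with libraries rescaled to the same sum, 1 with both groups alone, and from 0 to 33 with a library left out. As the rule used the control, nothing is read from these counts. The 115 members became 292 with rescaled libraries and from 44 to 152 with a library left out. The difference of g4839.t1 from 6 h to 9 h reversed to -0.27 with 6 h replicate 3 alone, and that of g7118.t1 to 1.41 without both libraries named above. With a library left out, that of g7118.t1 ran from -1.97 to 0.94. The causes were not tested. The count at 9 h against the control ran from 94 to 111 and that at 24 h from 104 to 111 with a library left out. Shares over all tested transcripts are not given for these fits. Nothing is read from these counts either, as the rule used the control. A length correction was not run, because a length was had for 50 of 115 members (43.5%), under the 80% needed. The value of 1 read was largest in the 24 h libraries.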
